A study of Homo sapiens with 4 samples.

Results

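The epidermal differentiation complex is a run of neighbouring genes on human chromosome 1 whose products build the cornified surface of stratified epithelia or bind calcium in their cells. Its members were taken by position alone, as the protein-coding genes of the RefSeq table lying fully on chromosome 1 between positions 151900000 and 153700000 (hg38). This gave 67 genes of the 19974 that the table places on the autosomes and chromosome X. By symbol they fell into 16 S100A genes, 11 SPRR genes, 19 LCE genes, 7 filaggrin-like genes and 10 other skin genes. The remaining 4, CHTOP, SNAPIN, ILF2 and NPR1, have no role in the differentiation families and lie at the higher-coordinate end.

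The mark measured was H3K9la, histone H3 carrying a lactyl group on lysine 9, mapped by chromatin immunoprecipitation and sequencing in KYSE30, an established human cell line derived from squamous carcinoma of the oesophagus. The study has 4 samples, with 1 anti-H3K9la and 1 input library in both the sg3 arm and the V2 arm, names that the labels do not explain. By its title the series concerns removal of H3K9la by SIRT3, a mitochondrial sirtuin, and the comparison asked here is where the lists of the arms differ. Each arm has 1 deposited peak list and no replicates, so no p-value is given. Differences are between 2 lists, with no replicate check, and the depth behind them is unknown.

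S100 proteins are small calcium-binding proteins that work as dimers and bind other proteins when calcium rises. Filaggrin-like proteins join an S100-type calcium-binding part to a long run of repeats, and filaggrin itself bundles keratin filaments. Involucrin (IVL), loricrin (LORICRIN), the small proline-rich proteins (SPRR) and the late cornified envelope proteins (LCE) are cross-linked by transglutaminases into the cornified envelope under the plasma membrane. Lining cells of the oesophagus do not normally form the hard cornified layer of skin, but they do make SPRR proteins, involucrin and several S100 proteins. A peak over a gene shows where the mark was found and does not measure its expression.

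The complex was marked unevenly, with S100A genes mostly marked in both lists, SPRR genes mostly marked in sg3 and less so in V2, LCE genes unmarked and filaggrin-like genes nearly so. A gene was counted as marked when any base of a record, meaning an entry of a peak list, overlapped it or lay within 5 kb. The sg3 list marked 30 of the 67 genes, which is 44.8% (exact Clopper-Pearson 95% interval 32.6 to 57.4%), against 59.4% of all protein-coding genes. The V2 list marked 21 genes, 31.3% (95% interval 20.6 to 43.8%), against 41.8% of all genes. Genes of the complex are short, with a median length of 2170 bases against 24170.5 bases over all genes. Among genes of at most 10 kb the lists marked 44.2% and 29.8%, shares that lay inside the intervals of the complex. Those genes are still longer, with a median of 4402 bases, and some members exceed 10 kb.

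All 21 genes marked in V2 were also marked in sg3, 9 genes were marked in sg3 alone, and 37 in neither. Among all protein-coding genes, 41.2% had records of both arms, 18.2% of sg3 alone and 0.646% of V2 alone, and over genes of at most 10 kb these were 29.5%, 14.7% and 0.371%. No member was marked in V2 alone. With 0 of 67 genes, the limit set by 3 counts is 4.48% and the upper exact bound is 5.36%. These intervals cover counting error only and take neighbouring genes as separate, although neighbours can share a record. Of the sg3 records near members, 13 lay near 2 or more of them, and of the V2 records 17 did.

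By family the S100A genes were marked equally often in each list, with 12 of 16 genes in both, which is 75.0% (95% interval 47.6 to 92.7%). The SPRR genes were marked in sg3 in 9 of 11 cases (81.8%, 95% interval 48.2 to 97.7%) and in V2 in 4 (36.4%, 10.9 to 69.2%). These intervals overlap. In sg3 alone 5 of 11 were marked, 45.5% (16.7 to 76.6%). That interval holds the 18.2% of all genes but not the 14.7% of genes of at most 10 kb. The other skin genes had 4 of 10 marked in sg3 and 3 in V2. With overlap of the gene, or a distance of 1 kb, these were 2 (KPRP and IVL) and 1 (KPRP). Of the filaggrin-like genes 1 of 7 was marked in sg3 and none in V2. None of the 19 LCE genes was marked in either list, where 3 counts would be 15.8% and the upper exact bound is 17.6%. The sg3-alone genes were thus 5 SPRR genes, HRNR, SMCP, SNAPIN and NPR1. The sg3 list is the longer, with 56875 records against 40332 in V2. With lists of equal length HRNR, SMCP and NPR1 were no longer marked, while the 5 SPRR genes and SNAPIN still were in sg3 alone.

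**Figure D1:**
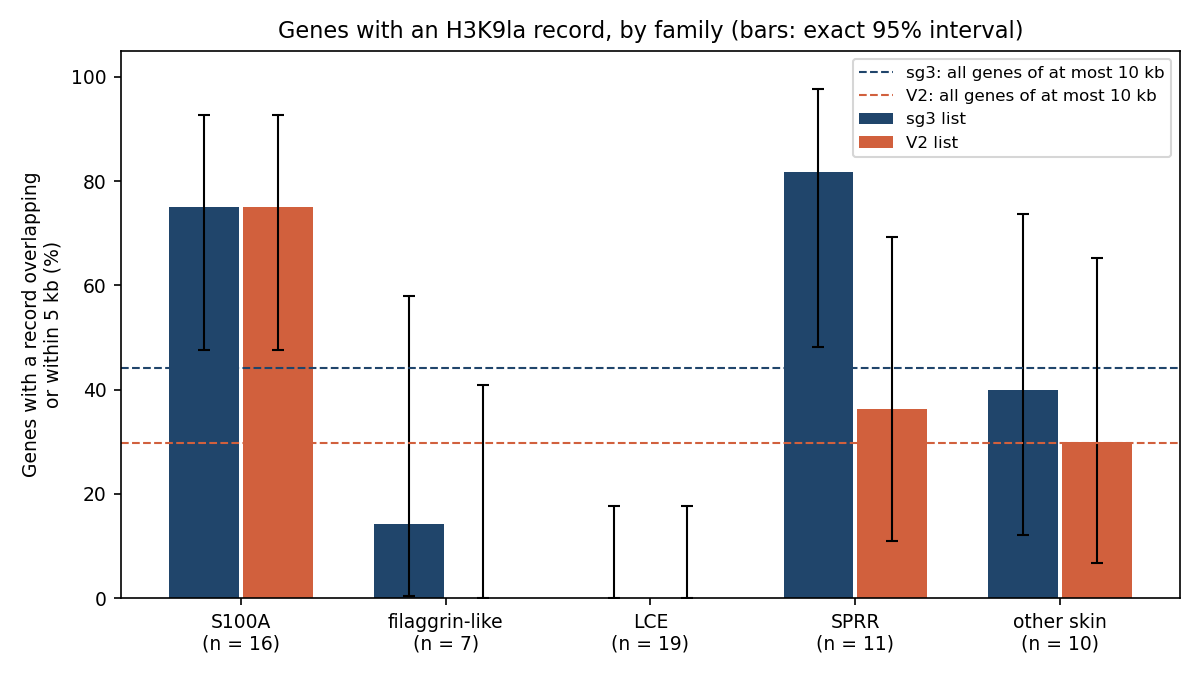
Share of genes (%) with an H3K9la record overlapping the gene or within 5 kb, for 5 families of the complex in the sg3 list (blue) and the V2 list (orange), with exact 95% intervals as error bars and the shares over all genes of at most 10 kb as dashed lines (44.2% for sg3 and 29.8% for V2). S100A bars are equal at 75.0%, SPRR bars are 81.8% and 36.4%, and the LCE bars are at 0.

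Along the chromosome the records formed dense blocks in the stretches at each flank. Between them lay a middle that was sparse beside the flanks, and islands around IVL and the SPRR genes. The interval held 151 sg3 records and 102 V2 records, or 83.9 and 56.7 per Mb, against 24.6 and 16.9 per Mb over chromosome 1. The stretches described here were bounded midway between neighbouring genes, and at the outside by the ends of the interval, after the records had been seen. The stretch from S100A10 to S100A11 (160.573 kb) held 46 sg3 and 44 V2 records, which covered 39.9% and 25.1% of its bases. This stretch began at 151900000, while S100A10 begins at 151982915, so it is wider than the gene pair. Of its records, 34 in sg3 and 35 in V2 lay within 5 kb of no member. The stretch from S100A6 to S100A1 (135.427 kb) held 26 sg3 and 35 V2 records over 36.3% and 22.7% of its bases. The larger V2 number goes with wide sg3 records that each span several V2 records.

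Between these flanks the stretch from TCHHL1 to CRNN held 9 sg3 records and no V2 record in 401.961 kb. Its sg3 density was 2.24 per 100 kb, against 18.2 per Mb over the autosomes and chromosome X and 24.6 per Mb over chromosome 1. By that measure this stretch was not sparse in sg3. From LCE5A to LCE7A there were 5 sg3 records and 1 V2 record in 407.254 kb. From SMCP to LORICRIN the lists held 45 and 14 records in 409.833 kb, the largest gap between the lists in number. From PGLYRP3 to S100A7 they held 14 and 4. The longest stretch of the interval without a V2 record ran from 152052569 to 152760160, 707.592 kb with 20 members inside. Of 39235 gaps in the V2 list, 875 (2.23%) were at least that long, and they made up 53.5% of the bases of these chromosomes. Such gaps were thus few by number but not rare by bases. How many of them hold genes was not counted. In sg3 the longest gap was 272.395 kb, over FLG, FLG2 and CRNN, and the next was 254.972 kb, from LCE5A to KPLCE. The same held in sg3, which had 55124 gaps. There 2107 gaps (3.82%) at least as long as the first made up 62.4% of the bases. The 2237 gaps (4.06%) at least as long as the second made up 63.6%.

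**Figure D2:**
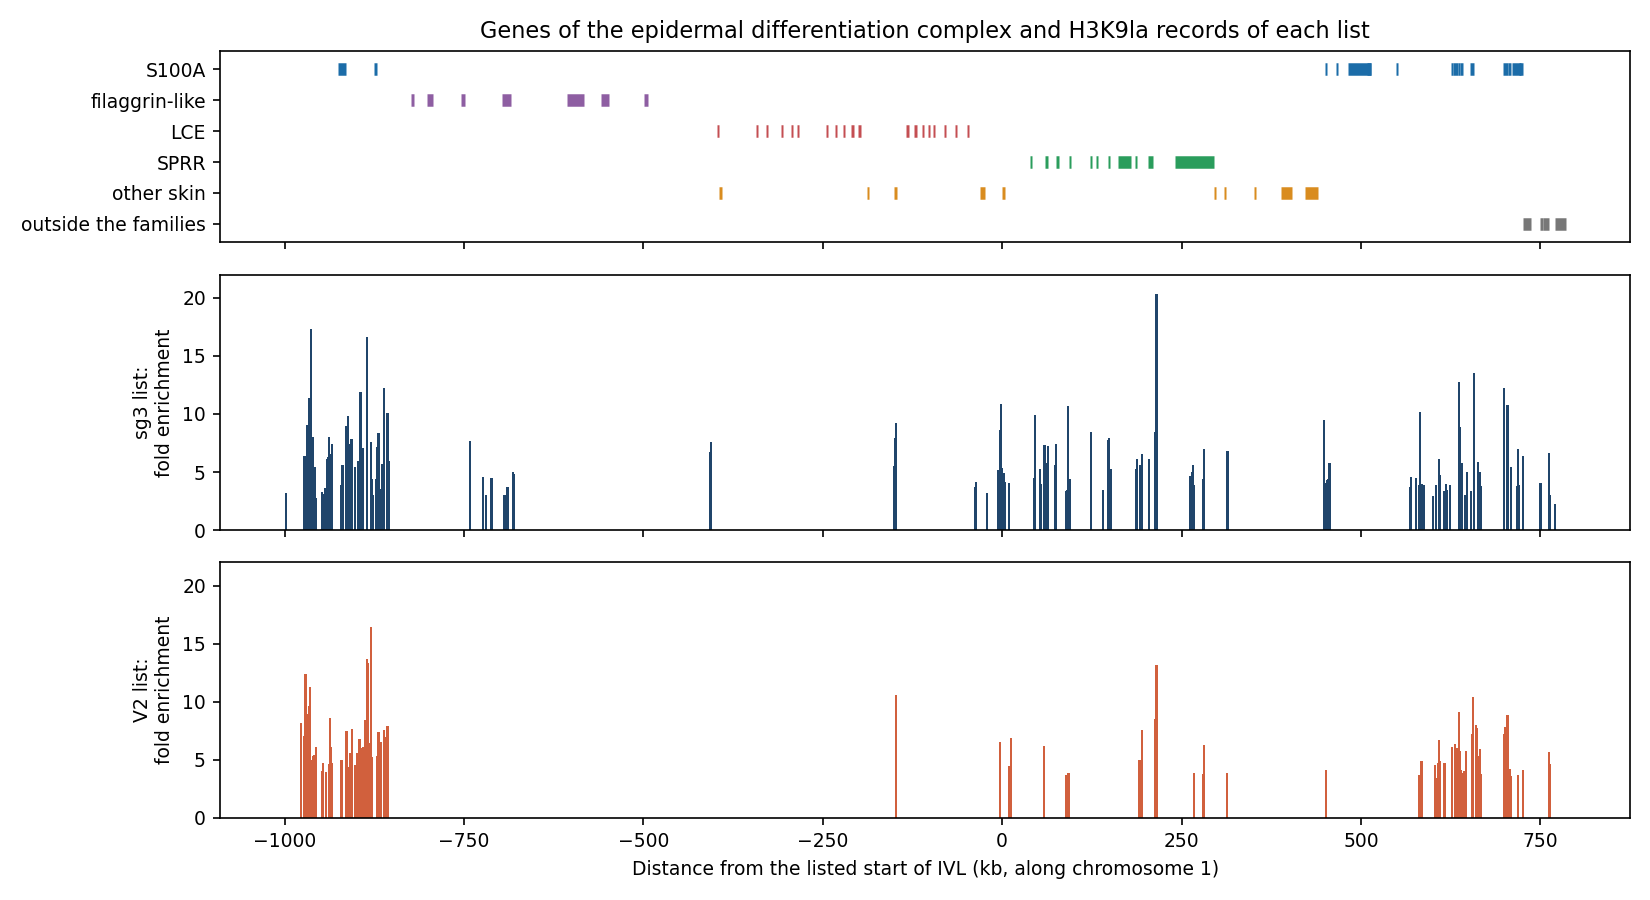
Genes of the complex by family (top) and the fold enrichment of each record in the sg3 list (middle) and the V2 list (bottom), against distance along chromosome 1 from the listed start of IVL in kb. Each bar stands at a record's summit, bar widths are not to scale, and fold enrichments rank records within their own list. Records crowd in the stretches that hold the S100A genes at both flanks, and neither list has one between the first and the last LCE gene apart from those at KPRP.

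**Figure D3:**
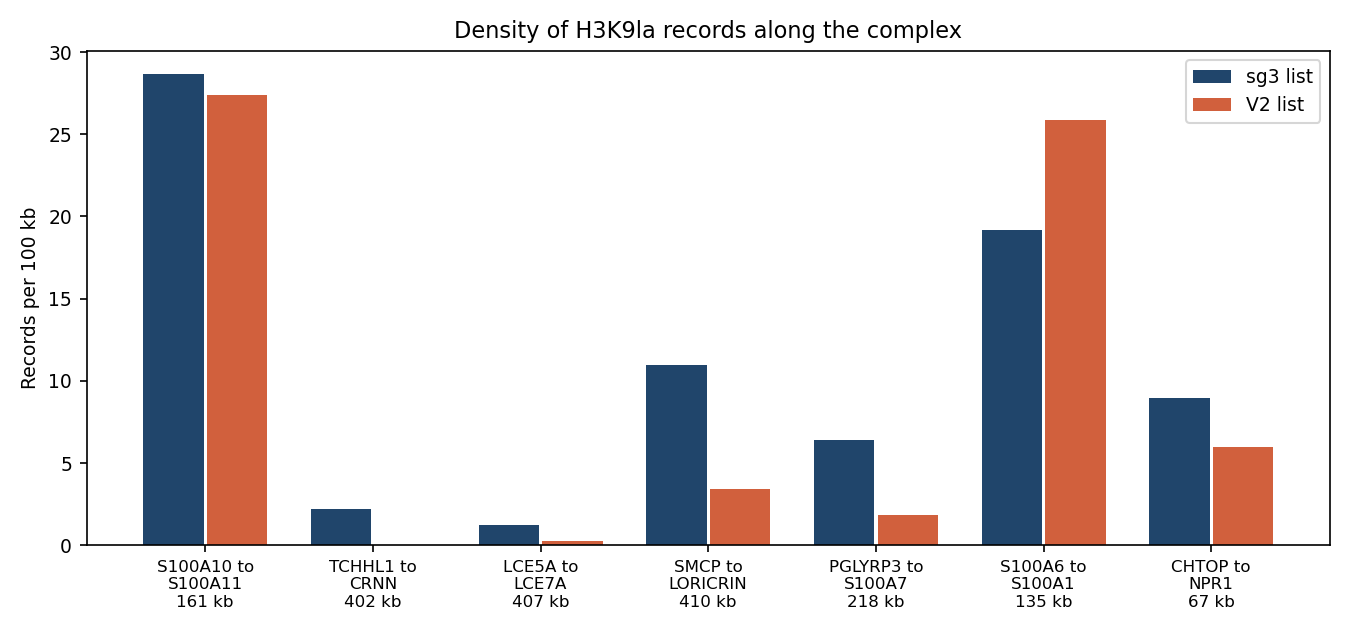
Records per 100 kb in 7 stretches of the complex in the sg3 list (blue) and the V2 list (orange), with the length of each stretch under its name. The first and the last stretch reach the ends of the interval, beyond the genes that name them. Density was 28.6 and 27.4 in the stretch from S100A10 to S100A11, 1.23 and 0.246 from LCE5A to LCE7A, and 19.2 and 25.8 from S100A6 to S100A1. For scale, chromosome 1 held 24.6 sg3 and 16.9 V2 records per Mb.

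Most V2 records of the interval overlapped an sg3 record, and most pairs that matched singly had summits close together. Of the V2 records in the interval 93 of 102 overlapped an sg3 record, 91.2% (95% interval 83.9 to 95.9%), against 86.3% over the whole list. Of the sg3 records 67 of 151 overlapped a V2 record, 44.4% (36.3 to 52.7%), against 52.4% over the whole list. In the 52 pairs that matched singly, the median distance between the summits was 38.5 bases, 44 pairs lay within 200 bases, and the largest distance was 1725 bases. The sg3 record was the wider in 42 of these pairs and the V2 record in 10. A further 13 sg3 records each overlapped 2 or more V2 records, 40 of them in all. The 9 V2 records without an sg3 partner had fold enrichments from 2.73 to 8.13, and 1 of them lay within 5 kb of a member, S100A3.

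RefSeq (GRCh38.p14) promoter windows were listed for 63 of the 67 genes, without CRCT1, LCE1B, SPRR2D and SPRR2E. The stretches of 250 bases before the start are printed for the member of each of 3 groups with the strongest record within 1 kb of the start, S100A2 for the S100A genes, SPRR3 for the SPRR genes and IVL for the other skin genes, so that they can be set beside their records. S100A10 is added as a broadly marked S100A gene, and FLG and LCE2D as genes without a record, chosen after their values were seen. They are written 5′ to 3′ on the gene's strand, with capitals for TGANTCA, the letters bound by AP-1 factors, and for TATAAA, the TATA box.
S100A2, chr1:153565845-153566094, minus strand: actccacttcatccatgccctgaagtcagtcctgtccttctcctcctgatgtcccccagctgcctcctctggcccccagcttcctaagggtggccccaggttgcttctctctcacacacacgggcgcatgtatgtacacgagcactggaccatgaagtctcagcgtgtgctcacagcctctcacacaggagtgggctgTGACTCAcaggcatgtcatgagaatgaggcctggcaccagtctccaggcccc
S100A10, chr1:151993860-151994109, minus strand: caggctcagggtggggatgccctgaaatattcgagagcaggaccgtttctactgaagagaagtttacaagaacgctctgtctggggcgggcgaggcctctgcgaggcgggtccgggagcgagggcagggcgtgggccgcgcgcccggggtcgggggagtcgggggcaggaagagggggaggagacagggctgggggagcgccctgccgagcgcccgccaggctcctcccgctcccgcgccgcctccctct
SPRR3, chr1:153001499-153001748, plus strand: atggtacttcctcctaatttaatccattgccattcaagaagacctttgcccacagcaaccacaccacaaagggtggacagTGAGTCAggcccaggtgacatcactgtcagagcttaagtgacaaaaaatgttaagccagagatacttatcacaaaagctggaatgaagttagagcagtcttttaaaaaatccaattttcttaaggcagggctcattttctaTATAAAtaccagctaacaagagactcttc
IVL, chr1:152908296-152908545, plus strand: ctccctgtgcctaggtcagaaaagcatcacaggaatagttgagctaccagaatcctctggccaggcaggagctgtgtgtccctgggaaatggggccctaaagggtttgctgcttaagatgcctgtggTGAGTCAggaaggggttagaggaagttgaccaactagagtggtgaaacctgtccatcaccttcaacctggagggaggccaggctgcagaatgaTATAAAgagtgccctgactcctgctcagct
FLG, chr1:152325240-152325489, minus strand: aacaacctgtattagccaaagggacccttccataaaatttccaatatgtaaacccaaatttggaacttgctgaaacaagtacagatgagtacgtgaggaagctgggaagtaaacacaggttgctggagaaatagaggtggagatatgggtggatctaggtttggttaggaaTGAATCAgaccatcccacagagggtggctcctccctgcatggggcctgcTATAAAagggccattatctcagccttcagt
LCE2D, chr1:152663130-152663379, plus strand: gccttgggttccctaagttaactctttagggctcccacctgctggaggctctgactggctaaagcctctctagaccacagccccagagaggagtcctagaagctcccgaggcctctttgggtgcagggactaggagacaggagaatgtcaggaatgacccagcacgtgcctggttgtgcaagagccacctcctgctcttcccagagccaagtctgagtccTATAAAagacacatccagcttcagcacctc

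Searched on both strands over the whole windows, which run from 250 bases before to 50 after a start, TGANTCA was found in 20 of 72 windows of the complex, 27.8% (95% interval 17.9 to 39.6%), and in 6.15% of 22132 windows of protein-coding genes. It was in 6 of 7 filaggrin-like windows, 6 of 9 SPRR windows, 4 of 9 windows of other skin genes, 4 of 23 S100A windows and none of 19 LCE windows. By marking, the letters were in 8 of 26 windows of genes marked in both lists, 3 of 9 of genes marked in sg3 alone and 9 of 37 of genes marked in neither. The 95% intervals of these shares overlapped, from 14.3 to 51.8% for genes in both lists and from 11.8 to 41.2% for genes in neither. Some genes have several windows, which can overlap, and the intervals take all windows as separate. TATAAA was in 33 of 72 windows, 45.8%, against 9.46% of all windows, and in 28 of the 72 it began 25 to 33 bases before the start.

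CCGCCC, a GC box, was in 15 of 72 windows of the complex, 20.8% against 56.3% of all windows. It was in 9 of 26 windows of genes marked in both lists (95% interval 17.2 to 55.7%) and 3 of 37 of genes in neither (1.70 to 21.9%), with overlapping intervals. Among genes in sg3 alone it was in 3 of 9 windows. These were 2 overlapping windows of SNAPIN and the window of NPR1, genes outside the families. CCNCNCCC, the letters of KLF type factors, was in 40 of 72, 55.6% against 65.9%, and in 19 of 23 S100A windows. By marking, the KLF letters were in 20 of 26 windows of genes in both lists (95% interval 56.4 to 91.0%). They were in 5 of 9 of genes in sg3 alone and 15 of 37 of genes in neither (24.8 to 57.9%). The intervals for both and neither overlapped slightly. The GC box and KLF letters can overlap each other. The median GC content of the windows was 58.3% for genes marked in both lists and 52.7% for genes in neither, against 62.3% over all protein-coding windows. Matches describe letters only and show no binding.

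S100A2, an S100 protein of basal squamous cells and a known p63 target, carried the record with the highest -log10 q of the complex in both lists. In sg3 it was 7901 bases wide, at chr1:153562844-153570744, with 13.5-fold enrichment and -log10 q 122. The -log10 q is the peak caller's significance after correction, and like the fold enrichment it is the authors' value and ranks records within 1 list. In V2 the strongest record was at chr1:153564599-153568625 with 10.4-fold enrichment and -log10 q 72.5. This and 3 other V2 records overlapped the sg3 record, and both listed starts of S100A2 were covered in both lists. The printed stretch of S100A2, with TGACTCA beginning at -52 from the start, lay inside both strongest records.

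S100A6, S100A5, S100A4 and S100A3 lie side by side between positions 153534599 and 153549258 and shared many of their records. S100A6 (calcyclin) and S100A4 (metastasin) are widely expressed, and S100A4 is known for its link to cell motility. A single sg3 record of 11803 bases, chr1:153533303-153545105, covered S100A6, S100A5 and most of S100A4, with 12.7-fold enrichment and -log10 q 73.0. V2 had 5 separate records that overlapped it. The strongest of these, at chr1:153544437-153545107 inside S100A4, had 9.11-fold enrichment and -log10 q 32.5, and the widest, chr1:153535062-153538617 over the start of S100A6, had 6.10 and 25.5. The start of S100A4 was covered in both lists, by records with fold enrichments of 8.86 in sg3 and 5.75 in V2. S100A3, a protein of the hair cuticle, had its start covered in sg3 alone (fold enrichment 5.80, -log10 q 16.4), with a V2 record of 3.87 and 5.38 inside the gene.

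S100A16 and S100A14, epithelial S100 genes that are neighbours, had wide sg3 records that V2 showed in pieces. The sg3 record at chr1:153607056-153611425 in S100A16 had 12.2-fold enrichment and -log10 q 82.5, and the next, chr1:153611760-153616292, covered the outer start of S100A16 and S100A14 up to just short of its start with 10.8 and 72.5. In V2 the strongest record here was at chr1:153611857-153613174 over the same start of S100A16, with 8.87 and 40.5. S100A13, a partner in the release of growth factors that lack a signal peptide, had a record over its outer start in both lists, with fold enrichments of 6.36 in sg3 and 4.12 in V2. CHTOP, a chromatin-binding protein gene, begins beside that start and shares these records. S100A1, best known from heart muscle, had its start covered in sg3 by a record of 3.84 and a -log10 q of 7.69, the V2 record nearest to it lay 1102 bases from the gene, and with the distance set at 1 kb S100A1 was in sg3 alone.

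At the lower-coordinate flank S100A10, the p11 partner of annexin A2, had its start covered in both lists. Its sg3 record at chr1:151991812-151995602 had 8.92-fold enrichment and -log10 q 91.3, and its V2 record at chr1:151992799-151995382 had 7.45 and 53.0. The GC-rich stretch printed for S100A10, with neither of the capitalised motifs, lay inside both. S100A11 (calgizzarin), a partner of annexin A1, had its start covered at chr1:152036053-152038296 in sg3 (7.17-fold enrichment) and at chr1:152036362-152038181 in V2 (5.36). The V2 record with the highest fold enrichment of the complex, 16.5 with a -log10 q of 65.3, lay past the 3′ end of S100A11 at chr1:152028047-152028743. It fell within an sg3 record of 5005 bases, chr1:152024494-152029498, at 7.61-fold enrichment. The weakest records near S100A genes had -log10 q values of 3.90 in sg3, upstream of S100A3, and 5.35 in V2.

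The S100A genes between these flanks, which encode proteins of inflammation and host defence, were mostly unmarked. S100A9, a subunit of calprotectin, had 7 sg3 records and 1 V2 record. The strongest sg3 record covered its start at chr1:153356333-153358087 with 9.52-fold enrichment and -log10 q 32.6, while the V2 record lay inside the gene at chr1:153359403-153359858 with 4.11 and 6.81. S100A8, which pairs with S100A9 in calprotectin, had no record within 23401 bases in sg3 or 30174 in V2. S100A12, S100A7A and S100A7 (psoriasin) had none within 5 kb either, and S100A12 was 7080 bases from the nearest sg3 record. The calprotectin partners thus differed, with the start of S100A9 covered in sg3 and S100A8 bare in both lists. The table gives S100A8 a long extent of which the listed starts lie near the lower end.

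IVL, the involucrin gene, had 7 sg3 records in a chain from upstream to past its end and 1 V2 record. The strongest sg3 record, chr1:152904889-152906983 with 8.59-fold enrichment and -log10 q 56.5, had its summit 3014 bases upstream of the start. The V2 record, chr1:152905077-152906210 with 6.54 and 32.0, had its summit 3023 bases upstream, 9 bases from the other. The records next to and over the start, chr1:152907163-152908329 (fold enrichment 10.8, -log10 q 32.1) and chr1:152908506-152910600 (5.34 and 10.8), were in sg3 alone. The lists thus shared the upstream record of IVL and differed at the start itself. In the printed stretch TATAAA, at -30 from the start, lay inside the sg3 record over the start, and TGAGTCA, at -123, lay between these sg3 records and in neither.

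**Figure D4:**
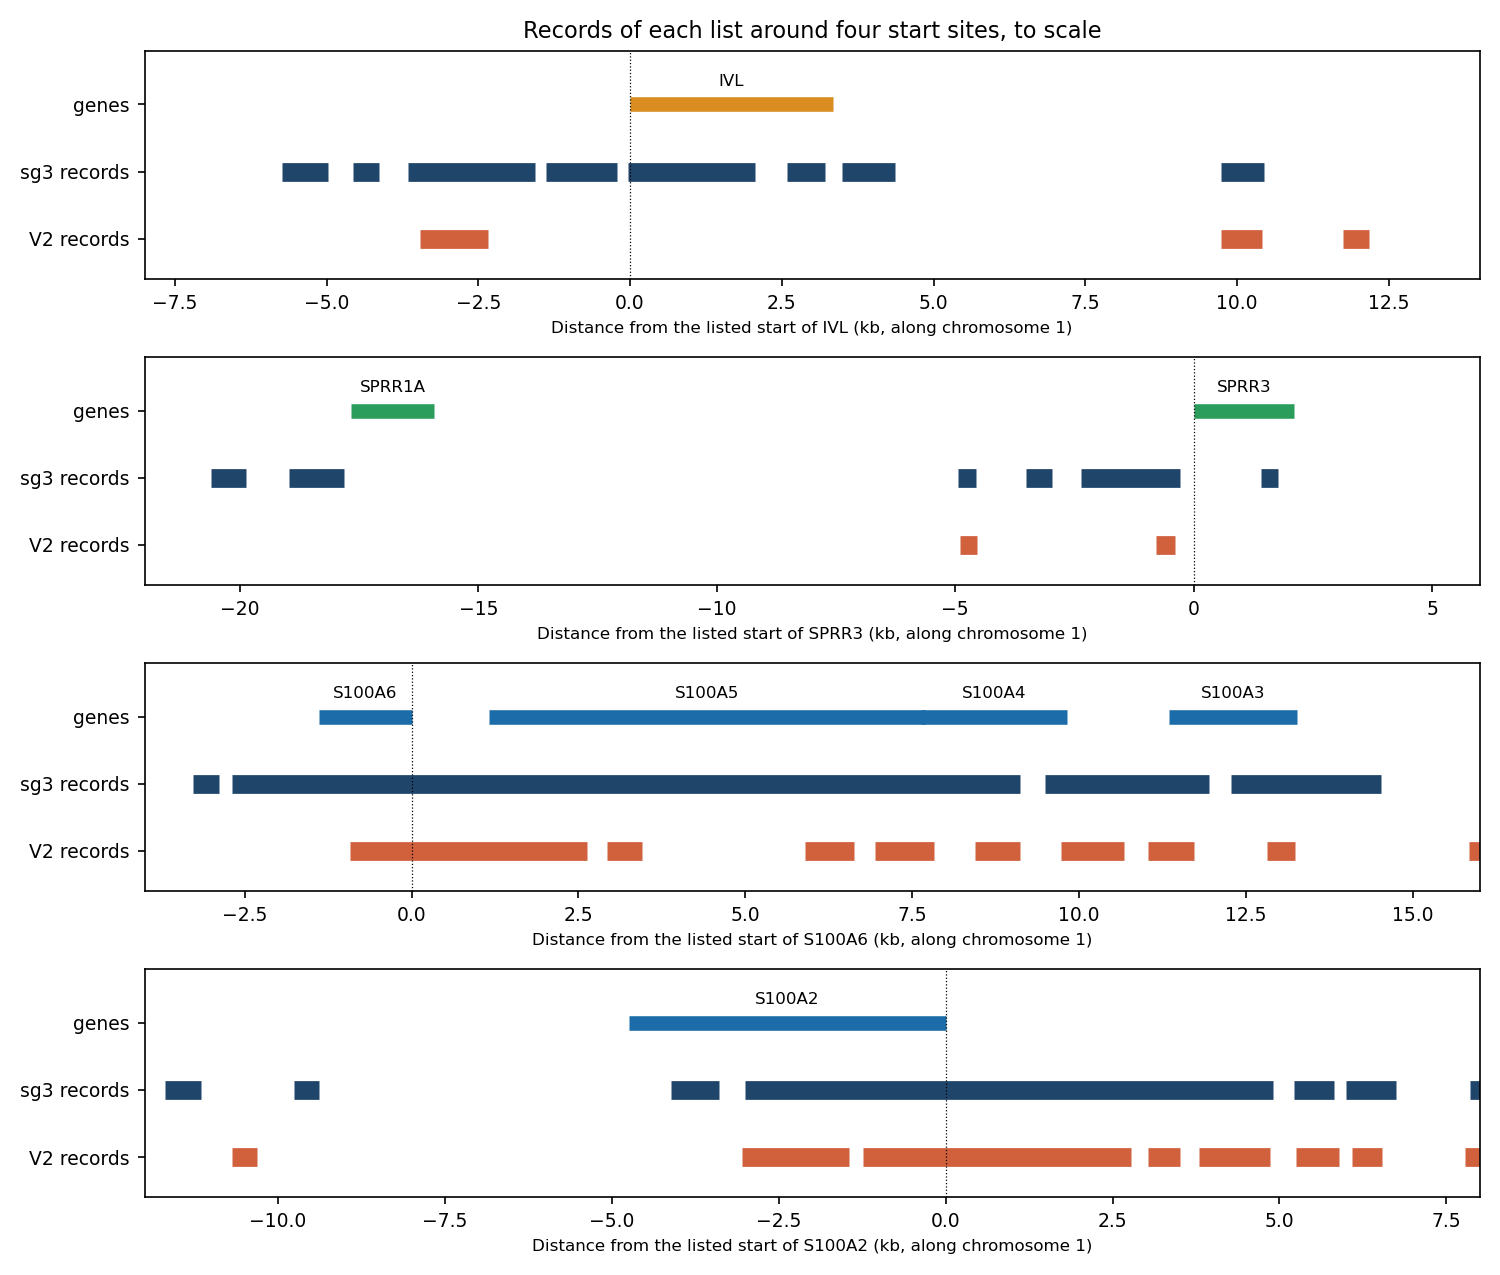
Records of the sg3 list (blue) and the V2 list (orange) around the listed starts of IVL, SPRR3, S100A6 and S100A2, drawn to scale with the genes above them, against distance from each start along chromosome 1 in kb (genes of the minus strand run from right to left). At IVL the V2 list has the upstream record and none at the start, and around S100A6 an sg3 record of 11803 bases stands over 5 V2 records.

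The SPRR genes held 28 sg3 records, of which 8 overlapped a V2 record, and 8 V2 records, all of which overlapped an sg3 record. The weakest had -log10 q values of 5.31 in sg3 and 3.41 in V2. The shared part of the sg3 records was 28.6% here, against 51.4% of the 35 sg3 records near S100A genes and 52.4% over the whole list. A low shared part was not particular to SPRR genes. It was 3 of 12 sg3 records (25.0%) near other skin genes and 0 of 5 near filaggrin-like genes. SPRR3 (esophagin), which is abundant in normal oesophageal lining, had its strongest sg3 record right before its start at chr1:152999390-153001465, with 10.7-fold enrichment and -log10 q 36.1. In V2 the record there was narrow and weak, chr1:153000960-153001358, with 3.89 and 4.07. SPRR4 had 5 sg3 records, of which chr1:152970426-152970858 (5.81, 11.4) covered its listed start and chr1:152967381-152968444 (7.36, 17.2) was the strongest, and 1 V2 record upstream (6.23, 9.91).

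SPRR1A and SPRR1B, the cornifins, were marked in sg3 alone. SPRR1A had a record at chr1:152982786-152983934, right before its start, with 7.38-fold enrichment and -log10 q 22.4, and SPRR1B had a record inside the gene at chr1:153032318-153032834 with 8.41 and 26.5. The nearest V2 records were 11033 and 29845 bases away. SPRR5 had its strongest record, with 9.95 and 23.9, past the 3′ end of the gene, its summit 7019 bases downstream of the start. SPRR2A had 3 sg3 records, the strongest inside the gene (7.75, 19.4), and SPRR2E had 2 (strongest 6.16, 10.5). SPRR2D and SPRR2B had none within 5 kb, with the nearest sg3 records 6898 and 6755 bases away.

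The highest fold enrichment of the complex in sg3 lay upstream of SPRR2F. The sg3 record at chr1:153123245-153125508 had 20.4-fold enrichment and -log10 q 72.1, and the record beside it, chr1:153121527-153122501, had 8.41 and 87.0. In V2 the matching records had 13.2 and 31.0, and 8.55 and 70.8. The summits lay 10209 bases upstream of the listed start of SPRR2F in both lists for the first, and 8526 and 8524 bases upstream for the second. They count as near SPRR2F because the table extends the gene upstream. The same holds for SPRR2G, whose 6 sg3 and 3 V2 records lay inside a long gene extent, 19991 bases or more upstream of its listed start (strongest 7.02-fold with -log10 q 13.3 in sg3, and 6.28 with 8.70 in V2).

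The V2 count of SPRR genes depended on the rule, and the sg3 count did so less. With records of a -log10 q of at least 10, V2 marked SPRR2F alone and sg3 still marked 9 genes. When a record had to overlap the gene, V2 marked SPRR2G alone and sg3 marked 6. SPRR2 genes are near-identical copies and no source used here says how reads with several alignments were treated, so values within this subfamily are uncertain. The weakest records near SPRR2A and SPRR2E had the same fold enrichment of 5.28 and -log10 q of 7.84. Because 359 records of the sg3 list share this pair of values, the match does not bear on reads with several alignments.

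Of the other skin genes KPRP, keratinocyte proline-rich protein, was the marked gene of the LCE stretch. It had 3 sg3 records inside or at the start of the gene, the strongest at chr1:152760106-152761705 with 9.22-fold enrichment and -log10 q 51.0. The V2 record, chr1:152760161-152761140 with 10.6 and 35.0, lay within it, and it was the only V2 record over 407.254 kb. PRR9 had a record a few kilobases past its end in both lists, with 6.81 and 17.3 in sg3 and 3.89 and 4.35 in V2. SMCP, a sperm mitochondrial protein gene, had 1 weak sg3 record beyond its end (3.16, 4.18). LORICRIN, CRCT1, KPLCE, LELP1, and the antibacterial PGLYRP3 and PGLYRP4 had none within 5 kb, and LORICRIN was 36641 bases from the nearest sg3 record.

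Of the filaggrin-like genes, HRNR (hornerin) alone had records, 5 in sg3 with fold enrichments from 3.01 to 4.98 and -log10 q from 4.18 to 7.44, and none in V2. No record of HRNR had a -log10 q of 10. Its repeats resemble each other and those of its neighbours, so these positions are uncertain. FLG (filaggrin), FLG2, TCHH (trichohyalin), TCHHL1, RPTN (repetin) and CRNN (cornulin, a squamous protein of normal oesophagus) had none, although 6 of the 7 windows of this family hold the AP-1 letters, as the printed stretch of FLG does at -79 from the start. FLG2 was 119927 bases and CRNN 86941 bases from the nearest record. FLG itself was 73357 bases from the nearest record in sg3 and 249597 in V2.

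The LCE genes, coding for small cysteine-rich or glycine-rich envelope proteins, had no record within 5 kb. Those in the middle of their run lay in long gaps of both lists. Gaps of such lengths were a small share of all gaps by number but a large share by bases. LCE3A was 119987 bases, LCE3B 110964, LCE3C 97387 and LCE2D 93161 bases from the nearest sg3 record, with V2 records farther still. With the distance set at 10 kb, LCE5A and LCE7A, the outermost LCE genes, were reached in sg3 alone and the other 17 in neither list. LCE copies resemble each other in sequence, so the handling of reads that align to several of them, which the sources used here leave unstated, bears on these counts.

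Over a listed start, sg3 had a record in 16 of 63 genes of the complex, 25.4%, and V2 in 7, 11.1%, against 22.7% and 9.56% of all genes with a listed start. In sg3 these were 11 S100A genes, KPRP, IVL, SPRR4, CHTOP and SNAPIN, and in V2 they were S100A genes only, S100A10, S100A11, S100A6, S100A4, S100A2, S100A16 and S100A13. Of the 84 sg3 records near members, 25 had their summit within 1 kb of a listed start, and 26 were over 5 kb from any listed start. SPRR2E has no listed start, so the 2 sg3 records near it were measured to the start of SPRR2F. Of the 46 V2 records these were 21 and 10.

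**Figure D5:**
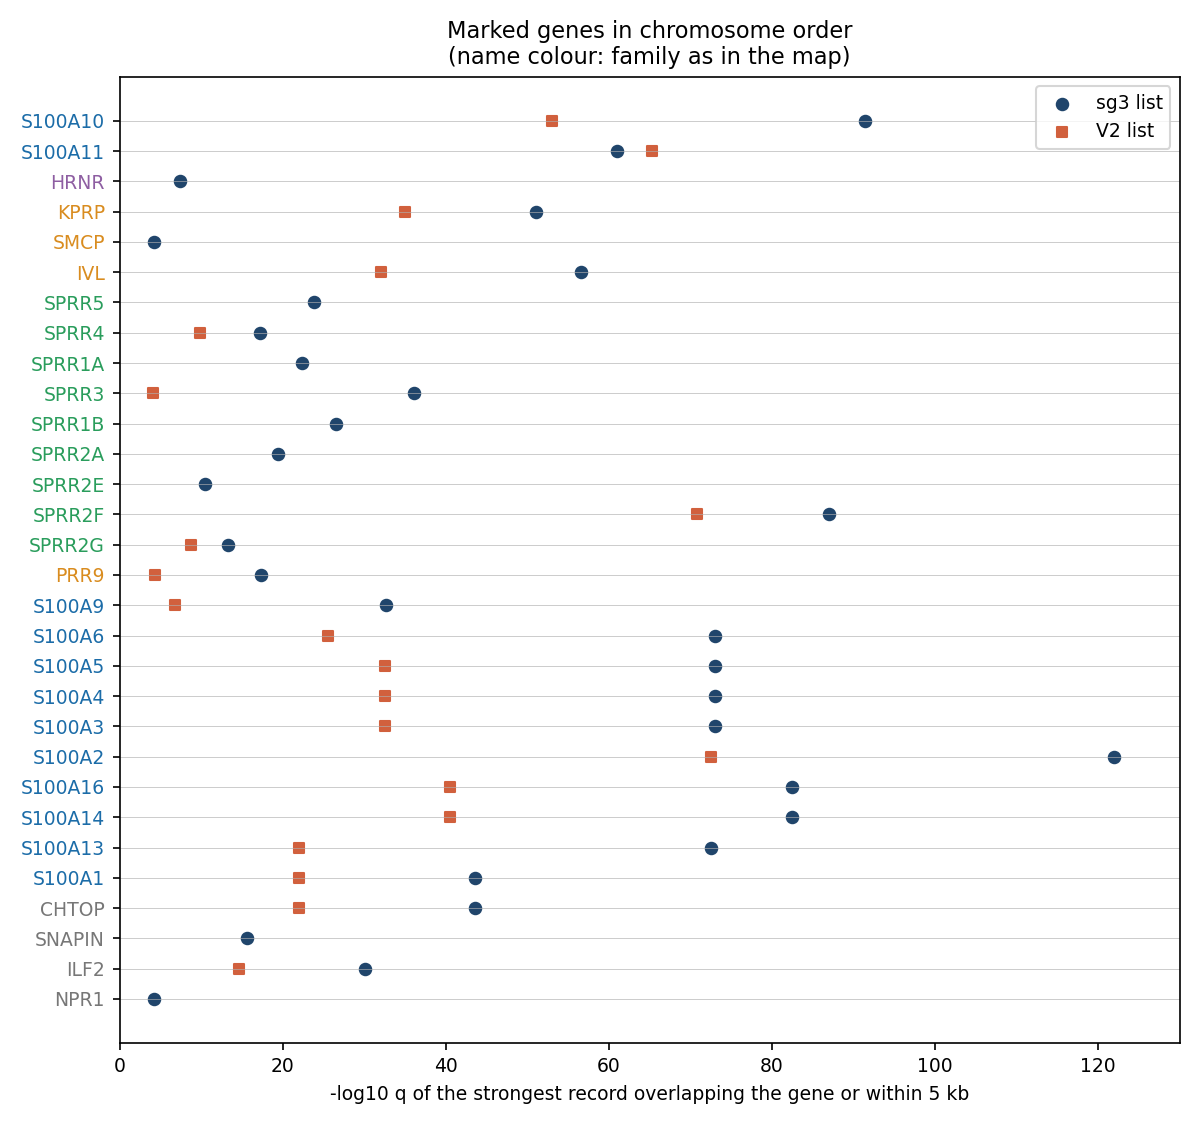
The -log10 q of the strongest record overlapping each marked gene or within 5 kb, in the sg3 list (blue circles) and the V2 list (orange squares), for the 30 marked genes in chromosome order. Neighbours that share a record have the same value, values rank records within their own list, and genes without a square have no V2 record. S100A2 is highest in both lists (122 and 72.5), and most SPRR genes lie below 40 in sg3.

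Keratin genes, which code for the filaments of these cells, had larger marked shares than the complex when the whole gene and 5 kb around it were counted. Of 55 keratin genes, 40 were marked in sg3 (72.7%, 95% interval 59.0 to 83.9%) and 31 in V2 (56.4%, 42.3 to 69.7%). The sg3 interval began above that of the complex, and the V2 intervals overlapped. Keratin genes are longer, with a median of 6433 bases, and the part of length in this difference was not tested. Within 1 kb of a listed start, 32.4% of 34 keratin genes had an sg3 record and 8.82% a V2 record. These shares were below the 36.5% and 20.6% of 63 genes of the complex. Within 5 kb of a listed start the keratin share was larger in sg3 (52.9% against 41.3%) and smaller in V2 (23.5% against 30.2%). The other 1995 genes of chromosome 1 had 63.9% marked in sg3 and 44.7% in V2.

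Of 28 genes of terminal squamous differentiation outside the complex, 20 were marked in sg3 (71.4%, 95% interval 51.3 to 86.8%) and 15 in V2 (53.6%, 33.9 to 72.5%), all 15 of them in both. These intervals hold the shares over all genes, 59.4% and 41.8%. The 28 genes are longer than those of the complex, with a median of 16576 bases against 2170. The transcription factors GRHL1, GRHL3, KLF4, OVOL1, ZNF750, PRDM1 and TP63 were marked in both lists. GRHL3 had 17.1-fold enrichment in sg3 and 7.82-fold in V2, and OVOL1 had 10.9 and 7.39. PRDM1 was marked in V2 by 1 weak record, with 3.98-fold enrichment and -log10 q 2.78. The envelope linkers PPL and EVPL were also in both, and PPL had 9.72 in sg3 and 14.2 in V2. The transglutaminase genes TGM1 (4.31) and TGM5 (5.55) were marked in sg3 alone and TGM3 in neither. CSTA, PI3, KLK5, CASP14, HOPX, SBSN and KRTDAP had no record. As a check of the labelled cell type, 10 of 10 squamous markers were marked in sg3 and 9 in V2, where KRT5 was not, against 4 and 3 of 10 markers of other lineages. The intervals of the other-lineage shares, 12.2 to 73.8% in sg3 and 6.67 to 65.2% in V2, hold the 59.4% and 41.8% of all genes.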

How the data were processed

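H3K9la ChIP-seq of KYSE30 cells was deposited as 2 MACS2 peak lists, 1 for each arm. Per the submitters' processing notes, the build was hg38 and the tools were MACS2 2.2.9.1, SAMtools 1.18, Bowtie2 2.5.1, Trim Galore 0.6.10 and FastQC 0.12.1. GEO attaches the sg3 list to its ChIP sample but the V2 list to the input sample of that arm. No source used here gives the command line, the control of each list or the depth. The fold enrichment, a ratio, and the -log10 p and -log10 q of each record are the authors' deposited values. The deposited score was not used, and the summit offset gave positions only.

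Records were matched to genes of the RefSeq table (GRCh38.p14) with Python 3.11.15, pandas 2.3.3 and SciPy 1.17.1. The matching was tested on simulated records. Records with any base inside the interval were counted, and a record was shared if 1 base or more of it lay in a record of the other list. Starts and strands came from the RefSeq promoter table. By rule, values are given for each member marked in V2, for those in sg3 alone, for records of 5 kb or more and for the strongest and weakest record of each family, with the distance for the 6 unmarked members farthest from a record. Members and lists were chosen with earlier results of these data known. Alternatives changed the distance, the thresholds, the list length, merging and the overlap. With 1 list per arm no test was made.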

Additional observations from a re-analysis of the deposited data

How the results depend on the processing

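Each arm has 1 list, so no replicate could be left out. No paired analysis was possible because each arm has a single list and no test was made. The numbers of members marked in sg3 (25 to 37 over the alternatives), in V2 (15 to 24), in both (15 to 24) and in sg3 alone (6 to 13) stayed within 1.5 times their values, and no alternative gave a member marked in V2 alone. With a -log10 q of at least 10, the interval held 89 sg3 and 67 V2 records, and with records within 1 kb merged it held 74 and 53. With a fold enrichment of at least 4, the share of V2 records that overlapped an sg3 record was 80.2%. With lists of equal length, the share of sg3 records that overlapped a V2 record was 58.8%. A start within 5 kb in place of the gene, chosen after seeing the data, gave 26 and 19 marked members. Depth is unknown, so an absent record cannot be told from one too weak to be called.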

Other observations

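Many records of the interval lay within 5 kb of no member, 67 of 151 in sg3 and 56 of 102 in V2. Most of them, 34 sg3 and 35 V2 records, stood around S100A10 and S100A11. The strongest of these in sg3 by fold enrichment, 17.3, lay at chr1:151943434-151945731 on the far side of S100A10, with a -log10 q of 78.5, and it overlapped a V2 record with 11.3 and 35.4. Between S100A10 and S100A11 an sg3 record of 6160 bases, chr1:152018002-152024161, had 16.6-fold enrichment and -log10 q 77.5 and overlapped 4 V2 records. Past the start of S100A11 an sg3 record at chr1:152045407-152049496 had 12.3 and 92.9. Both lists then stopped, sg3 at 152053913 and V2 at 152052568, short of TCHHL1.

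A second group of such records lay between S100A7 and S100A6, where sg3 had a record at chr1:153490807-153492462 with 10.1-fold enrichment and -log10 q 38.4. This record overlapped a V2 record with 4.19 and 11.7. The record at chr1:152920289-152920715, past the end of IVL, was in V2 alone with 6.90 and 14.9, its summit 11916 bases from the start of IVL. The V2 record without an sg3 partner that had the highest fold enrichment, 8.13, lay at chr1:151931316-151931809, 62286 bases from the start of S100A10.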
